A study of Mus musculus with 12 samples.

Results

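The genes described here are 9 of the 39017 genes in the count table, chosen by symbol for their place in the Notch pathway, with earlier results of these data known. They are the receptors Notch1, Notch2 and Notch4, the nuclear complex genes Rbpj and Maml1, the Fringe glycosyltransferase genes Lfng, Mfng and Rfng, and Adam10, which encodes a cleavage enzyme. All 9 were in the table and all 9 were among the 16024 genes that passed the filter on low counts. RNA had been sequenced from sorted mouse bone marrow LSK cells (Lin- Sca1+ cKit+), a gate that holds blood stem cells and early multipotent progenitors. The libraries labelled NICD_TCFKO came from R26 N1IC lox/+ Tcf7 lox/lox Mx1Cre mice, those labelled NICD_TCFWT from R26 N1IC lox/+ Mx1Cre mice, those labelled NOTCHWT_TCFKO from Tcf7 lox/lox Mx1Cre mice, and those labelled NOTCHWT_TCFWT from wild-type mice, with 3 libraries in each group. N1IC is the intracellular, constitutively active part of Notch1, and Tcf7 encodes the T cell factor TCF-1. Every group had the C57BL/6J; Sv/129 background and had been given poly(I:C) at 2 ug/g, which switches on Mx1Cre, a Cre driver that acts in blood cells and in other interferon-responsive tissues. Both NICD groups had in addition been sorted as CD45.2+ eGFP+, so that this gate and the N1IC label cannot be told apart. Ages are not in the labels, nor is it said that each replicate is its own mouse. Sex-linked transcripts, given below, differed within every group but NOTCHWT_TCFWT, so the libraries of those groups did not all come from the same mouse. For NOTCHWT_TCFWT this is not known. The p-values speak of the spread among these libraries alone, which may be in part technical.

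Notch receptors are cut by ADAM10 and then by gamma-secretase once a Delta or Jagged ligand on a neighbouring cell has bound them. The freed intracellular domain enters the nucleus, joins the DNA-binding protein RBPJ and recruits a co-activator of the Mastermind family such as MAML1. Fringe enzymes add a sugar to O-fucose on the receptor's extracellular repeats and so change which ligands it answers to. In blood formation Notch1 is best known for directing progenitors into the T lineage, while Notch2 is known for its roles in stem cell regeneration and in marginal zone B cells. Notch4 is known mainly from blood vessels.

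The upstream promoter sequences of Lfng, Rbpj and Notch1 are shown because the levels of these 3 genes changed in the largest number of comparisons. They are the 250 bases before a RefSeq transcript start on GRCm38.p6, written 5′ to 3′ on the gene's own strand, and 8 of the 9 genes had an entry, Mfng being the exception. Capitals mark TGGGAA, a core bound by RBPJ, and CTTTG, a core bound by TCF/LEF factors, each on either strand, so that TTCCCA and CAAAG are the same cores read on the other strand. The windows are chr5:140607091-140607340 (+ strand) for Lfng, chr5:53590096-53590345 (+ strand, the first of 2 listed starts) for Rbpj, and chr2:26503823-26504072 (- strand) for Notch1.
Lfng: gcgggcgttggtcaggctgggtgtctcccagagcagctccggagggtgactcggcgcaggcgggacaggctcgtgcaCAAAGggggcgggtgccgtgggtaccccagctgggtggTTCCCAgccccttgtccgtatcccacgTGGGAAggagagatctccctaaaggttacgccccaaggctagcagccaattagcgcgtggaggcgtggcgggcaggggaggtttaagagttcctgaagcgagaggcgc
Rbpj: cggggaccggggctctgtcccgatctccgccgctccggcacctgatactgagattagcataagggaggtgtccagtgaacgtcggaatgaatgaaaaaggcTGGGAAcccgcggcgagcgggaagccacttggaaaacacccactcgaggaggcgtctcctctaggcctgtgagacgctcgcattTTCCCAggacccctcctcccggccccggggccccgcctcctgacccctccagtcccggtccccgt
Notch1: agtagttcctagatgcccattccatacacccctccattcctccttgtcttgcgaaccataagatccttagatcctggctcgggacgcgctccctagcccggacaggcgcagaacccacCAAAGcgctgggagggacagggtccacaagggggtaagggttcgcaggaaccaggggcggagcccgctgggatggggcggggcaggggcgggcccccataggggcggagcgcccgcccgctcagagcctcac
The Lfng window held 2 RBPJ cores, 135 and 108 bases before the start, and 1 TCF/LEF core 173 bases before it. The Rbpj window held 2 RBPJ cores, 149 and 65 bases before the start, and no TCF/LEF core. The window of the second listed Rbpj start, which overlaps the first, held 1 RBPJ core and no TCF/LEF core. That core lies 205 bases before the second start and is the same site as the nearer core of the first window. The Notch1 window held no RBPJ core and 1 TCF/LEF core, 132 bases before the start. Maml1 had 1 TCF/LEF core 78 bases before its start, and the windows of Notch2, Notch4, Rfng and Adam10 held neither core. Over all 32851 promoter windows of the same length, 21.6% held at least 1 RBPJ core, 2.8% held 2 or more, and 48.6% held a TCF/LEF core. No marked cores overlapped. The windows are rich in G and C (66.0% in Lfng, 65.2% in Rbpj and 66.0% in Notch1, against a median of 52.4% over all windows), and a match is a description of letters, not of binding.

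Total counts were 30453271 to 43790674 per library. The gene named by the Tcf7 label did not follow it in every pair of groups. Tcf7 stood at 297, 896 and 615 CPM (counts scaled to a common library size, with TMM factors) in the libraries labelled NICD_TCFKO and at 5.05, 4.68 and 6.76 CPM in those labelled NICD_TCFWT. It stood at 0.819, 2.76 and 0.267 CPM in the libraries labelled NOTCHWT_TCFKO and at 14.3, 10.5 and 19.6 CPM in those labelled NOTCHWT_TCFWT. Group names below are therefore the labels, and every direction is one between libraries so labelled. The library NOTCHWT_TCFKO 1 held both Xist (2160 CPM) and Y-linked transcripts (157 CPM), a mixture seen in no other library. The sexes were not balanced between groups. Y-linked transcripts stood at 311 to 357 CPM in NICD_TCFKO 1, NICD_TCFWT 1, NICD_TCFWT 2 and NOTCHWT_TCFKO 3. All 3 NOTCHWT_TCFWT libraries had Xist (3550 to 4600 CPM) and at most 2.88 CPM of Y-linked transcripts. Sex and a difference of NOTCHWT_TCFWT from other groups thus cannot be fully told apart. The part of sex below was not tested beyond a covariate for Y-linked expression. Markers of other cell types also moved with the labels. The summed level of 10 T lineage markers was 448 to 1520 CPM in NICD_TCFKO libraries, 6.46 to 8.55 CPM in NICD_TCFWT (Cd3g and Ptcra at 0), 9.51 to 23.3 CPM in NOTCHWT_TCFKO (Ptcra at 0) and 5.32 to 7.77 CPM in NOTCHWT_TCFWT. The 8 granulocyte and monocyte markers summed to 386 to 1110, 1720 to 6330, 1610 to 8030 and 104 to 194 CPM in the same order of groups, and the 5 NK and innate lymphoid markers to 299 to 476, 154 to 177, 108 to 155 and 813 to 1530 CPM. The 8 macrophage markers summed to 276 to 389 CPM in NOTCHWT_TCFKO libraries and to at most 39 CPM in any other. The 9 LSK markers were present in every group (1500 to 2100, 3050 to 3540, 2340 to 3840 and 1830 to 2180 CPM). In bulk RNA, fewer cells of a type and less RNA per cell cannot be told apart, and the part of these markers in the results below was not tested.

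**Figure D1:**
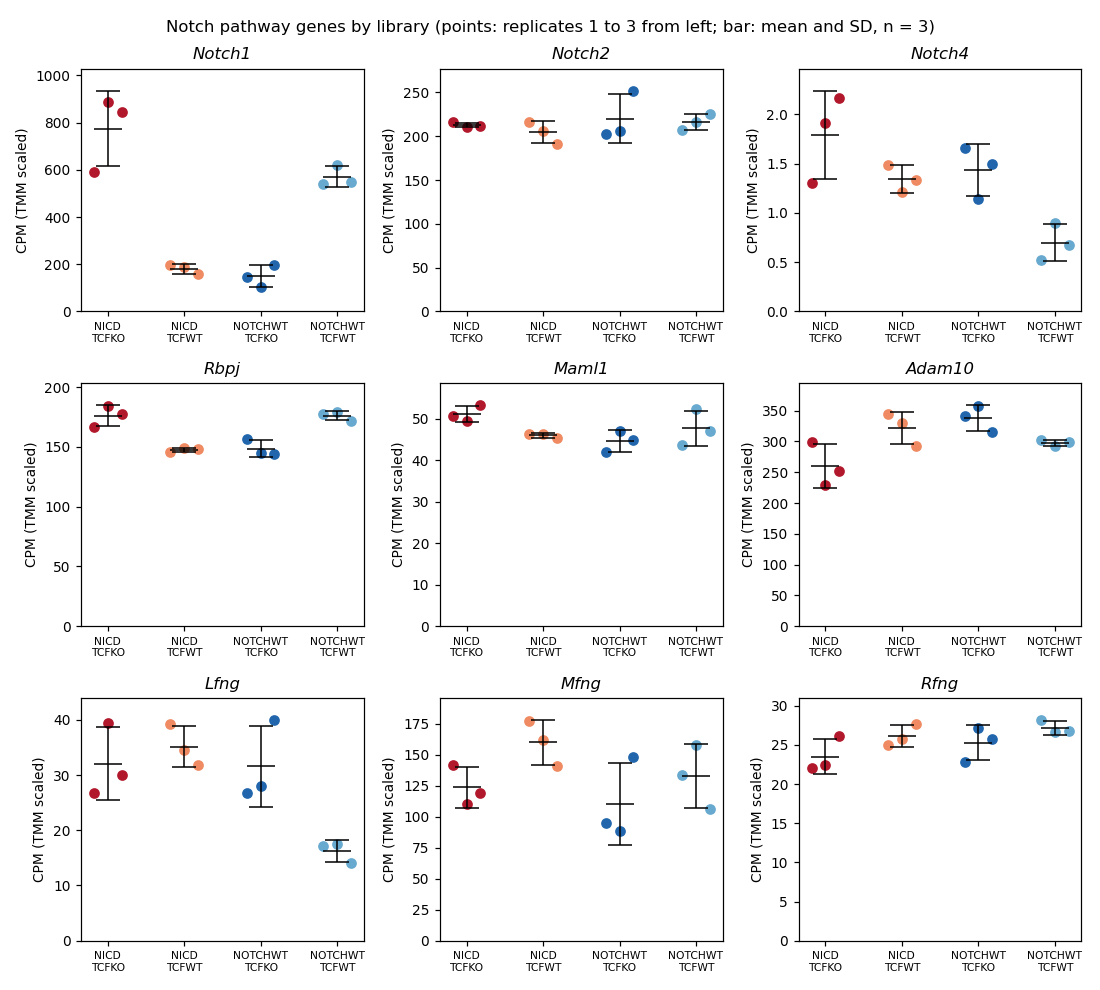
CPM of the 9 Notch pathway genes in each of the 12 libraries, 1 panel per gene with the axis starting at 0, points in the order of replicates 1 to 3 and bars for mean and SD. Notch1 is high in NICD_TCFKO and NOTCHWT_TCFWT and low in the other groups, Rbpj has the same split on a smaller scale, Lfng is lowest in NOTCHWT_TCFWT, and Notch2 is nearly level.

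Notch1 (ENSMUSG00000026923, chromosome 2, 26457903 to 26516663 on the - strand of GRCm38, the mm10 build) was the member with the widest range, 8.53-fold between its lowest and its highest library. It stood at 591, 887 and 846 CPM in NICD_TCFKO libraries, 195, 188 and 157 CPM in NICD_TCFWT, 145, 104 and 197 CPM in NOTCHWT_TCFKO, and 541, 622 and 549 CPM in NOTCHWT_TCFWT. The libraries thus formed a high pair and a low pair of groups, with a gap from 197 to 541 CPM in which no library lay. Each pair combines opposite labels: the high pair is labelled as carrying both alleles or neither, and the low pair as carrying 1 of them. Within the high pair NICD_TCFKO averaged 774 ± 160 CPM and NOTCHWT_TCFWT 571 ± 44.4 CPM (SD, n = 3 each), a log2 difference of 0.44 with a 95% interval of -0.03 to 0.92 (edgeR quasi-likelihood test, adjusted p = 0.266). Within the low pair NOTCHWT_TCFKO averaged 149 ± 46.7 CPM and NICD_TCFWT 180 ± 19.9 CPM, a log2 difference of -0.27 with an interval of -0.75 to 0.20 (edgeR, adjusted p = 0.478). Neither interval excludes a moderate difference.

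Between the pairs the difference in Notch1 was 3.17-fold to 5.2-fold. Notch1 fell by 1.66 ± 0.22 on the log2 scale (± SE throughout) in NICD_TCFWT against NOTCHWT_TCFWT libraries (edgeR, adjusted p = 0.000707), against the N1IC label, and fell by 1.94 ± 0.22 in NOTCHWT_TCFKO against NOTCHWT_TCFWT (edgeR, adjusted p = 0.000244). It rose by 2.10 ± 0.22 in NICD_TCFKO against NICD_TCFWT (edgeR, adjusted p = 0.000418) and by 2.38 ± 0.23 in NICD_TCFKO against NOTCHWT_TCFKO (edgeR, adjusted p = 0.000101). These 4 differences share groups and are not independent of each other. Of the 11 marker lists, 4 had summed levels that separated the high from the low pair without overlap. The NK and innate lymphoid list (299 to 1530 CPM in the high pair, against 108 to 177 CPM in the low pair) and the list of 5 mast cell genes (174 to 413 CPM, with Tpsb2 at 0 in NICD_TCFKO, against 39.2 to 169 CPM) were higher in the high pair. The granulocyte and monocyte list (104 to 1110 CPM in the high pair, against 1610 to 8030 CPM in the low pair) and the LSK list (1500 to 2180 CPM, against 2340 to 3840 CPM) were lower in it. The counts are per gene, so transcripts of N1IC and of the endogenous receptor gene are not separated. Notch1 exons overlap by 7.5% with the opposite-strand gene 0610009E02Rik, which had 262 counts over the 12 libraries, and by 2.91% with Gm13568, which had 12. Whether counting used strand is not given in the sources used here.

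Notch2 (ENSMUSG00000027878, chromosome 3, 98013527 to 98150361, + strand) differed little between libraries. It stood at 216, 211 and 212 CPM in NICD_TCFKO libraries, 216, 206 and 191 CPM in NICD_TCFWT, 202, 206 and 252 CPM in NOTCHWT_TCFKO and 207, 216 and 225 CPM in NOTCHWT_TCFWT. The group means were within 1.08-fold of each other. Notch2 was not called in any of the 6 pairwise comparisons, in which its 95% intervals all lay between -0.27 and 0.30 on the log2 scale.

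Notch4 (ENSMUSG00000015468, chromosome 17, 34564268 to 34588503, + strand) was the faintest member, with 18 to 87 counts per library. It stood at 1.30, 1.91 and 2.17 CPM in NICD_TCFKO libraries, 1.49, 1.21 and 1.33 CPM in NICD_TCFWT, 1.66, 1.14 and 1.5 CPM in NOTCHWT_TCFKO and 0.519, 0.893 and 0.677 CPM in NOTCHWT_TCFWT. All 9 libraries of the other groups were above the 3 labelled NOTCHWT_TCFWT. The list of 6 stromal and endothelial markers had the same split, at 142 to 188 CPM in NICD_TCFKO, 135 to 182 CPM in NICD_TCFWT and 137 to 149 CPM in NOTCHWT_TCFKO, against 114 to 126 CPM in NOTCHWT_TCFWT, with all 6 genes detected in each group. The granulocyte and monocyte, macrophage, and NK and innate lymphoid lists also set NOTCHWT_TCFWT apart from all other libraries, with values given for Lfng below. The part of these lists in the Notch4 result was not tested. Notch4 was higher than in NOTCHWT_TCFWT by 1.36 ± 0.31 (log2) in NICD_TCFKO (edgeR, adjusted p = 0.027) and by 1.04 ± 0.31 in NOTCHWT_TCFKO (edgeR, adjusted p = 0.0342). The difference in NICD_TCFWT, 0.95 ± 0.31 on the log2 scale, did not pass (edgeR, adjusted p = 0.0521), but it passed with DESeq2 (0.0306), with a filter of 1 CPM in 3 libraries (0.0446), without NICD_TCFKO 1 (0.0434) and without NOTCHWT_TCFWT 2 (0.045). Notch4 had the largest spread between replicates of the 9 genes (biological coefficient of variation 0.279), and both calls that passed were lost in some alternatives. In NICD_TCFKO against NOTCHWT_TCFWT the adjusted p rose to 0.0706, 0.0947, 0.107 and 0.0944 without NICD_TCFKO 2, NICD_TCFKO 3, NOTCHWT_TCFWT 1 and NOTCHWT_TCFWT 3, each left out in turn. In NOTCHWT_TCFKO against NOTCHWT_TCFWT it rose to 0.107 without NOTCHWT_TCFKO 1, the library of mixed sex, and to 0.121 without NOTCHWT_TCFWT 1. It rose to 0.0894 without NOTCHWT_TCFWT 3, to 0.058 without NOTCHWT_TCFKO 3 and to 0.0505 without NICD_TCFWT 2. This call was also lost in edgeR with a covariate for Y-linked expression (0.0542), with no filter on low counts (0.0573) and with only the groups compared (0.0749). It passed in 12 of 21 alternatives. Fitting only the groups compared also lost the call in NICD_TCFKO against NOTCHWT_TCFWT (edgeR, adjusted p = 0.0924), which passed in 15 of 21.

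Per kilobase of exon, the receptor transcripts changed in make-up between the groups. Notch2 stood at 17.7 to 23.4 CPM per kb over the 12 libraries, against 7.31 to 62.3 for Notch1 and 0.0644 to 0.269 for Notch4. Of the summed level of these 3 receptors, Notch1 made up 67.2 to 75.9% in NICD_TCFKO libraries, 38.3 to 40.7% in NICD_TCFWT, 27.5 to 37% in NOTCHWT_TCFKO and 64.8 to 68.4% in NOTCHWT_TCFWT. On this scale the order of Notch1 and Notch2 was reversed between the pairs of groups. Notch2 was the higher per kb in all 6 libraries labelled NICD_TCFWT or NOTCHWT_TCFKO. The scale divides by all annotated exon bases of a gene, 14.232 kb for Notch1 and 10.782 kb for Notch2. If the transcripts present were shorter than that, the order in the low pair could differ. Any N1IC transcripts counted to Notch1 would also enter its share. The sum itself was 61.7 to 82.1 CPM per kb in NICD_TCFKO, 28.9 to 33.9 in NICD_TCFWT, 26.5 to 37.4 in NOTCHWT_TCFKO and 57.2 to 63.9 in NOTCHWT_TCFWT. Notch3, the remaining receptor gene and not among the 9, stood at 5.66 to 14.4, 0.432 to 0.594, 0.114 to 0.294 and 4.86 to 6.56 CPM per kb in the same order, below Notch1 in every library.

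**Figure D2:**
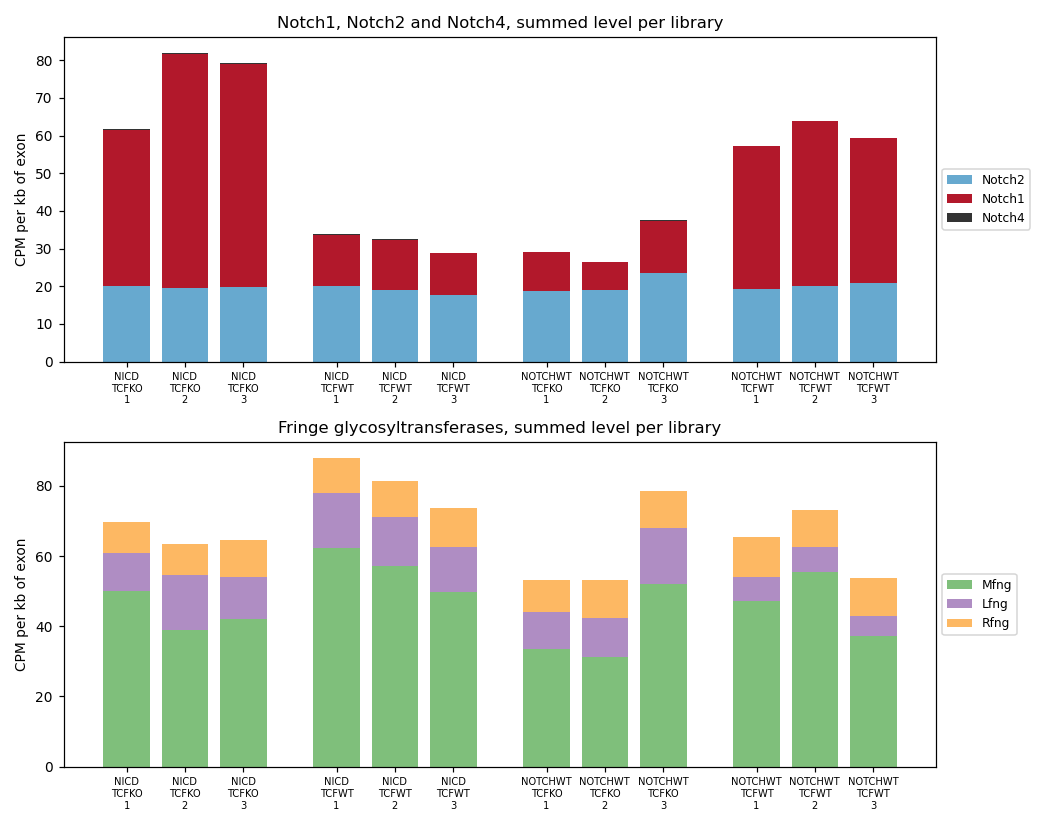
Stacked levels in CPM per kb of exon for each of the 12 libraries, with Notch1, Notch2 and Notch4 in the upper panel and the 3 Fringe genes in the lower one. The Notch2 segment keeps nearly the same height while the Notch1 segment changes, Notch4 is too low to be seen clearly, and Mfng is the tallest Fringe segment in every library.

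Rbpj (ENSMUSG00000039191, chromosome 5, 53466152 to 53657362, + strand) split the groups in the way Notch1 did, over a much narrower range. It stood at 167, 184 and 178 CPM in NICD_TCFKO libraries, 146, 149 and 148 CPM in NICD_TCFWT, 157, 145 and 144 CPM in NOTCHWT_TCFKO and 178, 179 and 172 CPM in NOTCHWT_TCFWT. The 6 libraries of the high pair lay at 167 CPM or above and the 6 of the low pair at 157 CPM or below. The size of the step was 1.19-fold to 1.2-fold. On the log2 scale it was -0.26 ± 0.06 in NICD_TCFWT against NOTCHWT_TCFWT (edgeR, adjusted p = 0.0113) and -0.25 ± 0.06 in NOTCHWT_TCFKO against NOTCHWT_TCFWT (edgeR, adjusted p = 0.0126). It was 0.26 ± 0.06 in NICD_TCFKO against NICD_TCFWT (edgeR, adjusted p = 0.0178) and 0.25 ± 0.06 in NICD_TCFKO against NOTCHWT_TCFKO (edgeR, adjusted p = 0.016). Within the high pair, NICD_TCFKO against NOTCHWT_TCFWT, the difference was 0.00 with an interval of -0.13 to 0.13, and within the low pair, NOTCHWT_TCFKO against NICD_TCFWT, it was 0.01 with an interval of -0.12 to 0.14.

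Rbpj had the smallest spread between replicates of the 9 genes (biological coefficient of variation 0.081, against 0.299 in common over all genes), and each of its 4 pairwise calls was lost on leaving out at least 1 library. The first was lost without NICD_TCFWT 1 (adjusted p = 0.0604) or NOTCHWT_TCFWT 1 (0.0517), and the second without NOTCHWT_TCFKO 2 (0.0527), NOTCHWT_TCFKO 3 (0.0522), NOTCHWT_TCFWT 1 (0.0696) or NOTCHWT_TCFWT 2 (0.0621). The third was lost without any of NICD_TCFKO 2 (0.079), NICD_TCFKO 3 (0.0526), NICD_TCFWT 1 (0.0814), NICD_TCFWT 2 (0.0575) or NICD_TCFWT 3 (0.0516). The last was lost without NICD_TCFKO 2 (0.0756), NICD_TCFKO 3 (0.0514), NOTCHWT_TCFKO 2 (0.0625) or NOTCHWT_TCFKO 3 (0.0517). Fitting only the groups compared also lost the second (edgeR, adjusted p = 0.0584) and the last (edgeR, adjusted p = 0.114). The difference kept its sign throughout, between 0.2 and 0.3 in size. A processed pseudogene of the same name, Rbpj-ps3, had 713 counts over the 12 libraries, and reads that match both genes could have been split between them.

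Maml1 (ENSMUSG00000050567, chromosome 11, 50255634 to 50292311, - strand) stood at 50.7, 49.3 and 53.2 CPM in NICD_TCFKO libraries, 46.3, 46.3 and 45.3 CPM in NICD_TCFWT, 41.9, 47.1 and 44.8 CPM in NOTCHWT_TCFKO and 43.7, 52.2 and 47 CPM in NOTCHWT_TCFWT. The NICD_TCFKO libraries lay above those of both groups of the low pair and overlapped with NOTCHWT_TCFWT. The group means were within 1.15-fold of each other and no comparison passed the test, the nearest being NICD_TCFKO against NOTCHWT_TCFKO at 0.20 ± 0.08 on the log2 scale (edgeR, adjusted p = 0.104). Maml1 exons overlap by 2.44% with the antisense gene Gm26542, which had 988 counts over the 12 libraries.

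Lfng (ENSMUSG00000029570, chromosome 5, 140607320 to 140615545, + strand) was the Fringe gene that changed, and its order was not that of Notch1 and Rbpj. It stood at 26.8, 39.4 and 30 CPM in NICD_TCFKO libraries, 39.2, 34.5 and 31.8 CPM in NICD_TCFWT, 26.8, 28 and 40 CPM in NOTCHWT_TCFKO and 17.2, 17.5 and 14 CPM in NOTCHWT_TCFWT. The 9 libraries of the other groups all lay above the 3 labelled NOTCHWT_TCFWT, which also stood apart, without overlap, in 4 marker lists. In all 9 other libraries the granulocyte and monocyte list was higher (at least 386 CPM, against 104 to 194 CPM in NOTCHWT_TCFWT), as were the macrophage list (at least 22.4 CPM, against 15.6 to 20.2 CPM) and the stromal and endothelial list given above, while the NK and innate lymphoid list was lower (at most 476 CPM, against 813 to 1530 CPM). Lfng rose against NOTCHWT_TCFWT by 0.99 ± 0.19 (log2) in NICD_TCFKO (edgeR, adjusted p = 0.0129), by 1.12 ± 0.19 in NICD_TCFWT (edgeR, adjusted p = 0.0023) and by 0.96 ± 0.19 in NOTCHWT_TCFKO (edgeR, adjusted p = 0.00443). These 3 comparisons share the NOTCHWT_TCFWT libraries. Among the other groups the differences were -0.13 for NICD_TCFKO against NICD_TCFWT (95% interval -0.54 to 0.27), 0.02 for NICD_TCFKO against NOTCHWT_TCFKO (-0.38 to 0.42) and -0.15 for NOTCHWT_TCFKO against NICD_TCFWT (-0.56 to 0.25). Without NOTCHWT_TCFWT 3, the library with the lowest level, the call in NICD_TCFKO did not pass (adjusted p = 0.0549), while those in NICD_TCFWT and NOTCHWT_TCFKO passed in each of the 21 alternative analyses.

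Mfng (ENSMUSG00000018169, chromosome 15, 78755882 to 78773475, - strand) had overlapping ranges in all 6 pairs of groups. It stood at 142, 110 and 119 CPM in NICD_TCFKO libraries, 177, 162 and 141 CPM in NICD_TCFWT, 94.8, 88.2 and 148 CPM in NOTCHWT_TCFKO and 134, 158 and 106 CPM in NOTCHWT_TCFWT. The library NOTCHWT_TCFKO 3 stood well above the other two of its group, and without it Mfng fell by 0.79 ± 0.17 on the log2 scale in NOTCHWT_TCFKO against NICD_TCFWT (edgeR, adjusted p = 0.0214). With all libraries this difference was -0.54 ± 0.20 (edgeR, adjusted p = 0.166). NOTCHWT_TCFKO 3 was also the highest of its group for Notch1, Notch2 and Lfng.

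Rfng (ENSMUSG00000025158, chromosome 11, 120780746 to 120784207, - strand) stood at 22, 22.4 and 26.1 CPM in NICD_TCFKO libraries, 25, 25.8 and 27.7 CPM in NICD_TCFWT, 22.8, 27.2 and 25.8 CPM in NOTCHWT_TCFKO and 28.2, 26.6 and 26.8 CPM in NOTCHWT_TCFWT. The Rfng group means lay within 1.16-fold of each other and it was not called in any comparison. Per kb of exon, Mfng supplied 58.4 to 75.9% of the summed Fringe level in every library. The Lfng share was 15.4 to 24.8% in NICD_TCFKO, 16.9 to 17.8% in NICD_TCFWT and 20.1 to 21% in NOTCHWT_TCFKO, against 9.54 to 10.5% in NOTCHWT_TCFWT. The sum of the 3 Fringe levels averaged 65.9 ± 3.27, 81 ± 7.25, 61.6 ± 14.6 and 64.1 ± 9.82 CPM per kb in the order NICD_TCFKO, NICD_TCFWT, NOTCHWT_TCFKO and NOTCHWT_TCFWT (SD, n = 3 each).

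Adam10 (ENSMUSG00000054693, chromosome 9, 70678997 to 70780229, + strand) had, like Rfng, its lowest mean in NICD_TCFKO. It stood at 299, 229 and 252 CPM in NICD_TCFKO libraries, 344, 330 and 293 CPM in NICD_TCFWT, 341, 357 and 315 CPM in NOTCHWT_TCFKO and 302, 293 and 299 CPM in NOTCHWT_TCFWT. All 3 NICD_TCFKO libraries lay below the 3 labelled NOTCHWT_TCFKO, and NICD_TCFKO 1 overlapped with the libraries of the other groups. Adam10 fell by 0.38 ± 0.10 (log2) in NICD_TCFKO against NOTCHWT_TCFKO (edgeR, adjusted p = 0.0237). That call was lost without NICD_TCFKO 2 (adjusted p = 0.0888), NICD_TCFKO 3 (0.0784), NOTCHWT_TCFKO 1 (0.0677) or NOTCHWT_TCFKO 2 (0.0798). Fitting only the groups compared lost it as well (edgeR, adjusted p = 0.0951). Against NICD_TCFWT the difference was -0.31 ± 0.10 (edgeR, adjusted p = 0.0623), and without NICD_TCFKO 1 it was -0.42 ± 0.09 and passed (adjusted p = 0.0128).

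Counted by comparison, 3 of the 9 genes were called in NICD_TCFWT against NOTCHWT_TCFWT, where 20.4% of all tested genes were called. In NICD_TCFKO against NICD_TCFWT 2 of 9 were called (12.4% of all genes), in NOTCHWT_TCFKO against NOTCHWT_TCFWT 4 of 9 (21.3%), in NICD_TCFKO against NOTCHWT_TCFKO 3 of 9 (18.4%) and in NICD_TCFKO against NOTCHWT_TCFWT 2 of 9 (6.30%). In NOTCHWT_TCFKO against NICD_TCFWT, where 2.87% of all genes were called, edgeR called 0 of the 9, as did DESeq2 and limma-voom, and 1 (Mfng) had an unadjusted p under 0.05 in edgeR. With so few genes nothing particular to them is read from these shares. The median log2 difference of the 9 lay between -0.1 and 0.17 in these 6 comparisons, beside medians of -0.01 to 0.01 over all tested genes. Ranges of 3 and 3 libraries that do not overlap were also common among all tested genes, at 44.2, 38.0, 37.0, 32.8, 25.9 and 27.8% in the comparisons in the order just given.

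**Figure D3:**
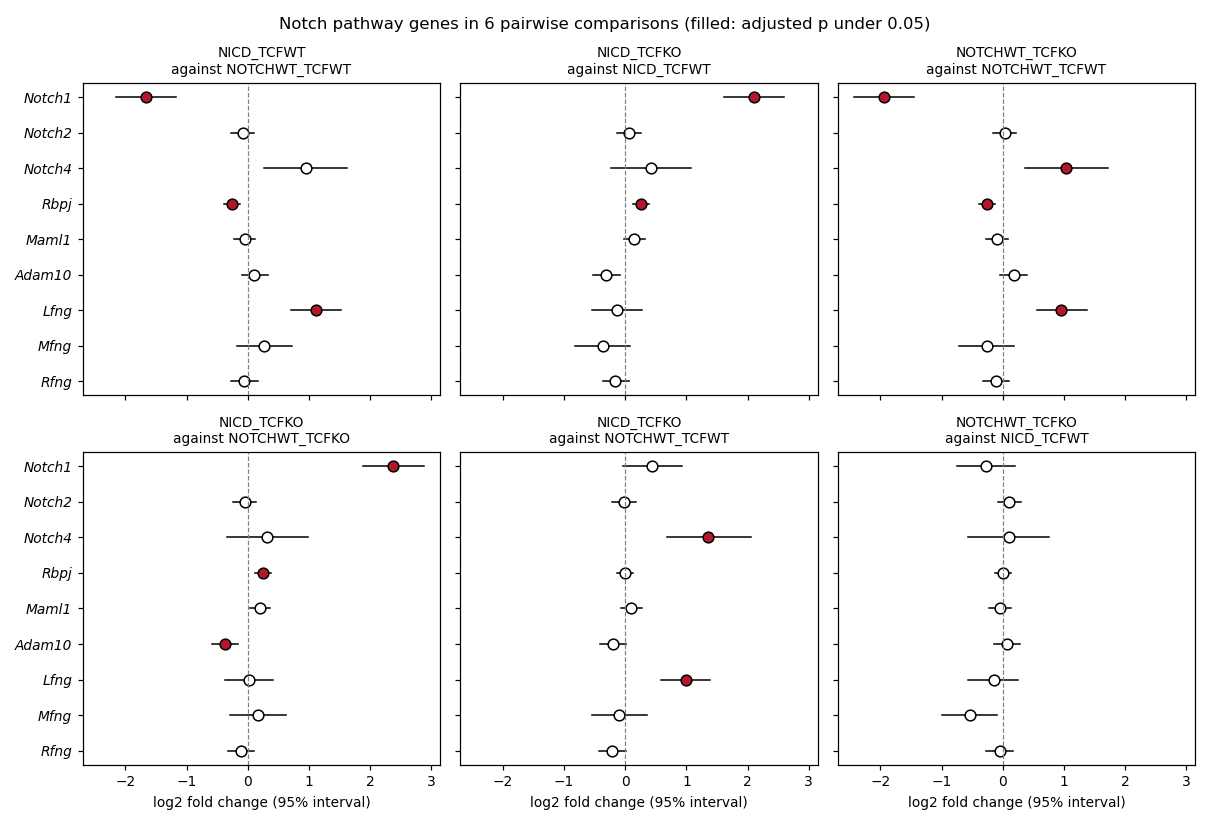
Log2 fold change with its 95% interval for the 9 genes in the 6 pairwise comparisons, filled where the adjusted p was under 0.05. Notch1 has the largest differences and changes sign between comparisons, Lfng and Notch4 lie to the right where the second group is NOTCHWT_TCFWT, and Notch2, Maml1, Mfng and Rfng are never filled.

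Whether the difference by labelled Tcf7 loss was the same with and without labelled N1IC was tested as an interaction, the log2 difference NICD_TCFKO against NICD_TCFWT minus that of NOTCHWT_TCFKO against NOTCHWT_TCFWT. It passed for 4 of the 9 genes, where 27.4% of all genes passed. For Notch1 the interaction was 4.04 ± 0.31 (edgeR, adjusted p = 1.43e-05), the gene rising with labelled Tcf7 loss where N1IC is labelled and falling where it is not. For Rbpj it was 0.51 ± 0.08 (edgeR, adjusted p = 0.00133), with the same change of sign. Unlike the pairwise calls of Rbpj, this one passed in each of the 20 alternative analyses, with a largest adjusted p of 0.00782. The interaction sets NICD_TCFKO and NOTCHWT_TCFWT against the other groups, which is the high pair against the low pair. For Notch1 and Rbpj it therefore restates the split described above, with the libraries of all groups, and is not a separate result. For Lfng the interaction was -1.10 ± 0.26 (edgeR, adjusted p = 0.00995), the gene rising with labelled Tcf7 loss in Notch wild type and differing by -0.13 ± 0.18 under labelled N1IC. This too restates the low level in NOTCHWT_TCFWT libraries described above. For Adam10, with -0.31 under labelled N1IC and 0.18 in Notch wild type, neither called, the interaction was -0.49 ± 0.14 (edgeR, adjusted p = 0.0231). That call was lost without NICD_TCFKO 2 (adjusted p = 0.0551), NICD_TCFKO 3 (0.0603), NICD_TCFWT 1 (0.0548), NICD_TCFWT 2 (0.0626), NOTCHWT_TCFKO 2 (0.0564) or NOTCHWT_TCFWT 3 (0.0504), and with a covariate for Y-linked expression (0.0725). Notch4, with -0.63 ± 0.43, did not pass (edgeR, adjusted p = 0.312).

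**Figure D4:**
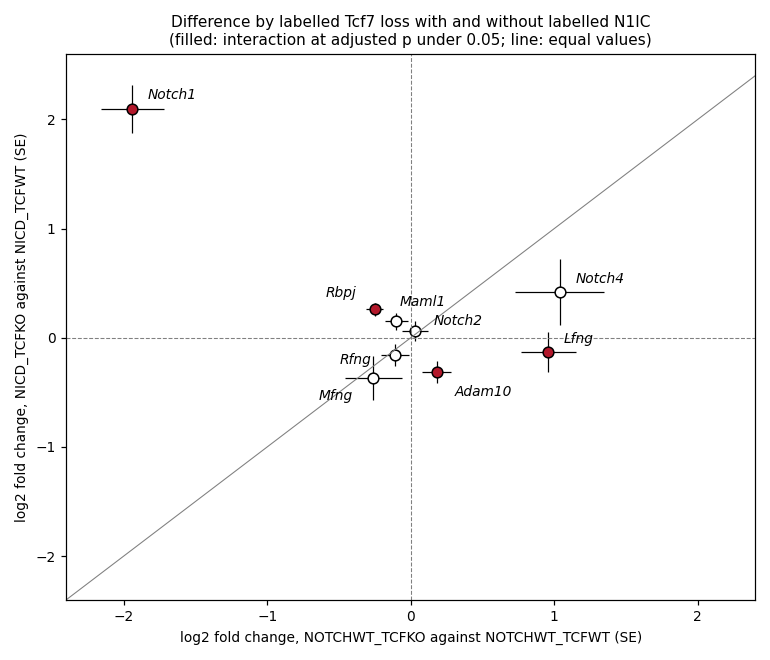
Log2 fold change of NICD_TCFKO against NICD_TCFWT (vertical axis) plotted against that of NOTCHWT_TCFKO against NOTCHWT_TCFWT (horizontal axis) for the 9 genes with SE bars, filled where the interaction passed. Notch1 lies far in the upper left corner at -1.94 and 2.10, Rbpj lies in the same quadrant near the origin, and Lfng lies to the right on the horizontal axis.

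Around the 9 genes, the rest of the pathway was followed through 6 lists of ligands, other receptor and glycosylation genes, gamma-secretase components and sheddases, co-activators, co-repressors, and ubiquitin and endocytosis regulators. Each list had a median log2 difference between -0.62 and 0.29 in the pairwise comparisons, the widest being those of the 5 tested ligands. In NICD_TCFWT against NOTCHWT_TCFWT, where 20.4% of all genes were called, 3 of 5 ligands were called (2 higher, 1 lower), 3 of 7 other receptor and glycosylation genes (2 higher, 1 lower), 1 of 8 gamma-secretase and sheddase genes (higher), 1 of 10 co-activators (lower), 4 of 16 co-repressors (1 higher, 3 lower) and 4 of 17 ubiquitin and endocytosis regulators (lower). In NOTCHWT_TCFKO against NOTCHWT_TCFWT (21.3% of all genes) the counts in the same order of lists were 2 (1 higher, 1 lower), 1 (lower), 1 (higher), 4 (lower), 1 (lower) and 5 (1 higher, 4 lower). In NICD_TCFKO against NICD_TCFWT (12.4% of all genes) they were 1 (lower), 2 (1 higher, 1 lower), 2 (lower), 1 (higher), 4 (3 higher, 1 lower) and 2 (higher). In NICD_TCFKO against NOTCHWT_TCFKO (18.4% of all genes) they were 0, 1 (higher), 2 (lower), 1 (higher), 3 (1 higher, 2 lower) and 5 (4 higher, 1 lower). On leaving out single libraries the counts for single lists moved by up to 3 genes in a direction in these comparisons, so the pathway calls given next with an adjusted p passed in every alternative analysis run, unless another figure is given.

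Among the ligands, Jag2, a Jagged family ligand, stood at 25.3, 18.6 and 12.1 CPM in NICD_TCFWT libraries, against 6.49, 9.59 and 6.44 CPM in NOTCHWT_TCFWT. It rose by 1.32 ± 0.32 on the log2 scale (edgeR, adjusted p = 0.0157). That call was lost without NICD_TCFWT 1, NOTCHWT_TCFWT 1 or NOTCHWT_TCFWT 3, with an adjusted p of up to 0.0659. The Delta ligand gene Dll1 was faint, averaging 0.322, 0.26 and 0.27 CPM in NICD_TCFKO, NICD_TCFWT and NOTCHWT_TCFKO, against 1.57 CPM in NOTCHWT_TCFWT. In NICD_TCFWT against NOTCHWT_TCFWT it fell by 2.59 ± 0.58 on the log2 scale (edgeR, adjusted p = 0.0102). Dlk1, also faint with 228 counts over the 12 libraries, rose by 4.39 ± 0.86 in the same comparison (edgeR, adjusted p = 0.00548).

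Notch3, the receptor gene itself a Notch target, had 89.9 ± 38.5 CPM in NICD_TCFKO libraries, 3.97 ± 0.727 CPM in NICD_TCFWT, 1.60 ± 0.73 CPM in NOTCHWT_TCFKO and 45.1 ± 7.16 CPM in NOTCHWT_TCFWT (SD, n = 3 each). The target genes Hes1, Dtx1 and Nrarp had the same high and low pairs of groups. Hes1, a transcriptional repressor, averaged 158 ± 56.3, 4.54 ± 2.94, 7.67 ± 5.6 and 177 ± 47.8 CPM in that order, and Nrarp, a feedback inhibitor of the pathway, 68.8 ± 8.07, 6.15 ± 0.865, 5.24 ± 0.942 and 114 ± 6.32 CPM. In NICD_TCFWT against NOTCHWT_TCFWT these targets fell, against the N1IC label. The log2 differences were -5.28 ± 0.83 for Hes1 (edgeR, adjusted p = 0.00278), -9.39 ± 0.57 for Dtx1 (edgeR, adjusted p = 8.91e-06) and -4.21 ± 0.16 for Nrarp (edgeR, adjusted p = 1.72e-07).

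Among the cleavage genes, Aph1c, a subunit of gamma-secretase, went the other way to Notch1. It stood at 5.53, 4.12 and 6.67 CPM in NICD_TCFKO libraries, 9.45, 11.7 and 11.5 CPM in NICD_TCFWT, 11.7, 12 and 11.8 CPM in NOTCHWT_TCFKO and 4.27, 3.64 and 2.82 CPM in NOTCHWT_TCFWT. It rose by 1.60 ± 0.21 (log2) in NICD_TCFWT against NOTCHWT_TCFWT (edgeR, adjusted p = 0.000572) and by 1.73 ± 0.21 in NOTCHWT_TCFKO against NOTCHWT_TCFWT (edgeR, adjusted p = 0.000291). It fell by 1.00 ± 0.20 in NICD_TCFKO against NICD_TCFWT (edgeR, adjusted p = 0.0112) and by 1.12 ± 0.20 in NICD_TCFKO against NOTCHWT_TCFKO (edgeR, adjusted p = 0.00457). Psen2, a catalytic subunit of the same enzyme, fell by 0.74 ± 0.17 in NICD_TCFKO against NICD_TCFWT (edgeR, adjusted p = 0.0173). That call held in 17 of 21 alternatives and was lost without NICD_TCFKO 2, NICD_TCFKO 3, NICD_TCFWT 1 or NICD_TCFWT 3, with an adjusted p of up to 0.0767.

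From the list of ubiquitin and endocytosis regulators, Dtx3l and Aak1 had the high and low pairs of groups of Notch1, with their highest mean in NOTCHWT_TCFWT. Mib1 of the same list fell by 0.38 ± 0.07 (log2) in NICD_TCFWT against NOTCHWT_TCFWT (edgeR, adjusted p = 0.00523). Its difference of 0.23 ± 0.07 in NICD_TCFKO against NICD_TCFWT did not pass (edgeR, adjusted p = 0.0684). Dtx3l, a ubiquitin ligase of the Deltex family, averaged 196, 119, 120 and 221 CPM in NICD_TCFKO, NICD_TCFWT, NOTCHWT_TCFKO and NOTCHWT_TCFWT. It fell by 0.89 ± 0.11 (log2) in NICD_TCFWT against NOTCHWT_TCFWT (edgeR, adjusted p = 0.000402) and rose by 0.72 ± 0.11 in NICD_TCFKO against NICD_TCFWT (edgeR, adjusted p = 0.00245). Aak1, an endocytic kinase, averaged 28.6, 20.0, 17.0 and 32.9 CPM in the same order. It fell by 0.95 ± 0.16 in NOTCHWT_TCFKO against NOTCHWT_TCFWT (edgeR, adjusted p = 0.00195) and rose by 0.74 ± 0.16 in NICD_TCFKO against NOTCHWT_TCFKO (edgeR, adjusted p = 0.00905).

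In the nucleus, the histone acetyltransferase gene Kat2b averaged 80.5, 57.5, 67.1 and 86.8 CPM in the same order of groups and fell by 0.59 ± 0.09 (log2) in NICD_TCFWT against NOTCHWT_TCFWT (edgeR, adjusted p = 0.00121). The Groucho co-repressor genes Tle1 and Tle3 each had an order of their own. Tle1 stood at 16.3, 10.8 and 9.61 CPM in NICD_TCFKO, 10.3, 10.2 and 9.93 CPM in NICD_TCFWT, 17.1, 17 and 20.6 CPM in NOTCHWT_TCFKO and 34.8, 36.7 and 30.3 CPM in NOTCHWT_TCFWT. Its log2 difference from NOTCHWT_TCFWT was -1.47 ± 0.18 in NICD_TCFKO (edgeR, adjusted p = 0.00169), -1.75 ± 0.18 in NICD_TCFWT (edgeR, adjusted p = 0.000159) and -0.89 ± 0.18 in NOTCHWT_TCFKO (edgeR, adjusted p = 0.00544), so that NOTCHWT_TCFWT is set apart as for Lfng but in the other direction. Tle3 averaged 207 CPM in NICD_TCFKO, against 110, 103 and 105 CPM in NICD_TCFWT, NOTCHWT_TCFKO and NOTCHWT_TCFWT, and it rose by 0.98 ± 0.15 in NICD_TCFKO against NOTCHWT_TCFWT (edgeR, adjusted p = 0.00465).

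The genes whose pattern over the 12 libraries was most like that of a member were found by the root mean square difference of log2 CPM, each gene centred on its own mean. For Notch1, whose own root mean square deviation was 1.06, the nearest were Clec2i at 0.20, Abi3 at 0.23 and Gpr18 at 0.24. For Lfng (0.49) they were B4galt5 at 0.16, Rubcnl at 0.22 and Anks1 at 0.23, and for Notch4 (0.57) Hivep3 at 0.23, Timp2 at 0.25 and Cep164 at 0.25. For Rbpj (0.13) they were Upf3b and Srsf11 at 0.03 and Nras at 0.05, and for Adam10 (0.18) Arf2 at 0.06, Cr1l at 0.07 and Micu2 at 0.08. The libraries are shared by all genes compared in this way, and the likeness is a description.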

How the data were processed

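The deposited values used are raw counts per Ensembl gene, made by the authors. The submitters' processing notes name featureCounts 1.4.4, HISAT2, cutadapt 1.9.1, bcl2fastq 2.17, limma and edgeR 3.28.0, and the mm10 build, without their roles. A deposited table of log2 CPM values by the authors served only as a check: for the 9 genes it differed from the CPM used here by at most 0.0473. From GENCODE M21, symbols matched 37607 and exon lengths 37693 of 39017 genes. Genes were kept by filterByExpr and scaled by TMM. All 12 libraries entered 1 quasi-likelihood fit with a mean for each group in edgeR 4.0.16 (R 4.3.3). F tests were two-sided, with Benjamini-Hochberg adjustment over 16024 genes and a threshold of 0.05. SE is the log2 fold change over the square root of F. On data simulated for NICD_TCFWT against NOTCHWT_TCFWT (16024 genes) the test recovered 74% of 2-fold and 94% of 4-fold changes, with 5.08% of calls false. The changed genes there were few, all had a mean above the level of Notch4, and no change under 2-fold was simulated. These rates therefore do not cover Notch4 or the smaller differences of Rbpj and Adam10. All 9 genes are reported. Of the pathway lists, up to 4 called genes per list and comparison with the largest change could be named. Not every gene that could be named is given, and some that are given were lost in some alternatives. The 9 genes and the lists were chosen with earlier results of these data known. Alternatives were RLE factors, other filters, DESeq2 1.42.0, limma-voom 3.58.1, fitting only the groups compared, covariates for library sheet (inferred from titles) and for Y-linked expression, a replicate block, and leaving out each library. Replicate numbers were not used as pairs in the main fit, and same-numbered libraries were not alike across all groups.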

Additional observations from a re-analysis of the deposited data

Results flagged for a closer look

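For 4 of the 9 genes the difference by labelled Tcf7 loss differed between the libraries labelled N1IC and those labelled Notch wild type, by a test of that difference itself (edgeR interaction, log2). The values were 4.04 for Notch1 (adjusted p = 1.43e-05), 0.51 for Rbpj (adjusted p = 0.00133), -1.10 for Lfng (adjusted p = 0.00995) and -0.49 for Adam10 (adjusted p = 0.0231), beside 27.4% of all tested genes that passed the same test. For Notch1 and Rbpj this is the split into high and low pairs of groups given above, not a separate result. For Lfng it likewise restates the low level in NOTCHWT_TCFWT libraries. For Adam10 it combines differences of -0.31 and 0.18 that were not called on their own.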

How the results depend on the processing

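Of 1314 alternative values for the 9 genes, 1262 kept their direction and their side of the threshold, 45 lost a call, 7 gained one and 0 changed sign after being called. The Notch1 calls held in each alternative analysis, and so did those of Lfng except the one already given. With DESeq2 the number of genes called was 3186 (1986 in edgeR) in NICD_TCFKO against NICD_TCFWT, 2025 (1010) in NICD_TCFKO against NOTCHWT_TCFWT and 1655 (460) in NOTCHWT_TCFKO against NICD_TCFWT. When only the groups compared were fitted, 1238 genes and 1 of the 9 were called in NICD_TCFKO against NOTCHWT_TCFKO (2942 and 3 with all groups), 538 and 1 in NICD_TCFKO against NOTCHWT_TCFWT (1010 and 2), and 2 of the 9 in NOTCHWT_TCFKO against NOTCHWT_TCFWT (4 with all groups). With a covariate for Y-linked expression the counts were 1519 in NICD_TCFKO against NOTCHWT_TCFWT and 805 in NOTCHWT_TCFKO against NICD_TCFWT. Leaving out single libraries gave 2024 to 3644, 917 to 2688, 2201 to 3847, 1610 to 3302, 368 to 1285, 161 to 2065 and 3545 to 4660 genes in the 6 pairwise comparisons, in the order of the report, and the interaction. Of the 9 genes it gave 2 to 4, 1 to 3, 2 to 4, 1 to 3, 0 to 2, 0 to 1 and 3 to 4. In NOTCHWT_TCFKO against NICD_TCFWT the 2065 genes came without NOTCHWT_TCFKO 3 and the 161 without NICD_TCFWT 1, against 460 with all libraries. Such fits hold fewer libraries, yet the number of genes called rose in some and fell in others. The cause of these shifts was not tested.

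Same-numbered libraries of different groups correlated at -0.406 to 0.464 in their deviations from the group means (18 pairs, 6 of them over 0.1). The correlations were all above 0 between NICD_TCFKO and NICD_TCFWT (0.31, 0.095 and 0.464) and between NICD_TCFWT and NOTCHWT_TCFWT (0.025, 0.109 and 0.212). Between the other groups they were of mixed sign. The numbers thus do not pair the libraries across all groups, while pairing between some groups is not excluded. With a replicate block, 1 of the 9 genes was called in NICD_TCFKO against NOTCHWT_TCFWT and 291 genes in NOTCHWT_TCFKO against NICD_TCFWT. Under the block Notch4 in NOTCHWT_TCFKO against NOTCHWT_TCFWT had an adjusted p of 0.0607, and in NICD_TCFKO against NOTCHWT_TCFWT 0.0572. Notch4 rests on the fewest counts of the 9 genes, at 18 to 87 per library.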
